A study of Homo sapiens with 30 samples.

Results

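The leukocyte genes, GZMB, SLAMF7, SLAMF9, CCR4, IRGM, ITGAM and CD3D, were followed across the 6 groups of a transfection experiment in U2OS, a human osteosarcoma cell line. They are the rows of the count table with these gene symbols, 7 of 57373 genes, and all 7 passed the expression filter that kept 18485 genes for testing. The members were chosen by their counts in these same libraries, which differed strongly between groups. Their differences are therefore given as a description, with no test, and they support nothing beyond the values themselves.

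Cells were mock-transfected, or received 500 ng of plasmid for 48 hours that encoded either wild-type FOXP2 (WT FOXP2) or a FOXP2 without residues 264 to 272 (dhelix FOXP2). FOXP2 binds DNA through a forkhead domain and is best known from inherited disorders of speech. Each of the 3 conditions was studied without drug and after CHIR99021 (CHIR), which was added at 5 µM 72 hours ahead of transfection and inhibits glycogen synthase kinase 3, an enzyme that marks β-catenin for destruction. The 6 groups were thus mock, CHIR, WT FOXP2, WT FOXP2 + CHIR, dhelix FOXP2 and dhelix FOXP2 + CHIR, each with 5 libraries called biological replicates in the labels. All come from 1 cell line, nothing says whether the replicates were separate cultures, and p-values therefore measure the spread between these libraries, which may be technical. Whether mock cells were given plasmid without an insert is not stated, so in every comparison with mock or CHIR the effect of FOXP2 and that of plasmid DNA cannot be told apart.

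Apart from IRGM, these genes are textbook products of blood cells. Cytotoxic lymphocytes store granzyme B, the serine protease encoded by GZMB, in granules and release it into target cells. SLAMF7 and SLAMF9 are cell-surface receptors of the SLAM family of the immunoglobulin superfamily, CCR4 is the receptor of the chemokines CCL17 and CCL22 on T cell subsets, IRGM is an immunity-related GTPase with a role in autophagy of intracellular bacteria, ITGAM is the αM chain that pairs with the β2 chain ITGB2 into the integrin Mac-1 of myeloid cells, and CD3D is the δ chain of the CD3 complex that signals for the T cell receptor. IRGM aside, connective tissue cells of the osteosarcoma lineage are not known for making them.

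Libraries held 15755842 to 29466652 counts, and levels are counts per 1000000 counts (CPM) on library sizes scaled by trimmed means of M values. FOXP2 was at 0.898 ± 0.284 CPM in mock and 0.504 ± 0.462 CPM in CHIR (SD, n = 5), and at 5319 to 15299 CPM on average in the 4 plasmid groups. AXIN2, a standard target of β-catenin signalling, was at 21.0 ± 1.01 CPM in mock and 145 ± 15.7 CPM in CHIR, and it rose by 2.79 ± 0.09 on the log2 scale (SE, adjusted p = 5.13e-24, edgeR's quasi-likelihood test with Benjamini-Hochberg adjustment). Of the markers of the line, VIM stood at 1271 to 2587 CPM and SPARC at 546 to 2006 CPM as group means. CHIR replicate 1 stood farthest from its group, and it was left out together with dhelix FOXP2 replicate 5 and WT FOXP2 + CHIR replicate 4. All 63 member differences then moved by no more than the root of the summed variances of log2 CPM in the 2 groups compared. That allowance is wide for genes with few counts. The CCR4 difference between CHIR and mock changed sign without CHIR replicate 4 and still fell within it.

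Promoter sequences were at hand for 5 of the 7 genes, from RefSeq in build GRCh38.p14. Those of GZMB and SLAMF9 are shown because both hold an AP-1 motif in the bases ahead of their start. The 250 bases before the annotated start are on the minus strand, at chr14:24634191-24634440 for GZMB and at chr1:159954238-159954487 for SLAMF9. Capitals mark the match to TGANTCA, the AP-1 motif, searched on both strands.
GZMB: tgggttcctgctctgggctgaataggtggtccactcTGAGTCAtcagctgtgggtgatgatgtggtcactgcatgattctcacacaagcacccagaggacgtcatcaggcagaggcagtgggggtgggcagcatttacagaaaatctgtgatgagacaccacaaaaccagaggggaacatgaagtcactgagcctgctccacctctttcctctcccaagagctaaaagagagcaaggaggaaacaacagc
SLAMF9: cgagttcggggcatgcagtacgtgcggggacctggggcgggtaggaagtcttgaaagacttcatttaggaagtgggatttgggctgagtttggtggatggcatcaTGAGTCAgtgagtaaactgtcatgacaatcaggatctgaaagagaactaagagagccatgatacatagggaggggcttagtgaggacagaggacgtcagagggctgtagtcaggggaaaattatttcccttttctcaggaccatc
The match lay 214 bases before the start in GZMB and 145 bases before it in SLAMF9. In CD3D the same 7 letters stood 15 bases after the start, in the stretch at chr11:118342674-118342699 on the minus strand.
CD3D: ggtacctgTGAGTCAgctaggggagg
Over 300 bases around the start, 3 of the 5 promoters held TGANTCA against 7.71% of 35116 RefSeq promoters, and over the 250 bases ahead of the start 2 of 5 against 6.57%. The forkhead motifs TGTTTAC and TATTTAT, the TCF/LEF motif CTTTGAT, an NF-kB motif and the cyclic AMP response element TGACGTCA had no match in the 5, with 3.42%, 4.93%, 2.62%, 1.91% and 1.85% of all promoters holding them. A match is a string of letters and not evidence of binding, and its absence says only that those letters are not in this window. TGANTCA was the motif with matches among 6 searched, and the 3 genes that hold it differ in their pattern across the groups. Since the genes were picked by their levels and this motif is shown for its matches, nothing is read from these shares.

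**Figure D1:**
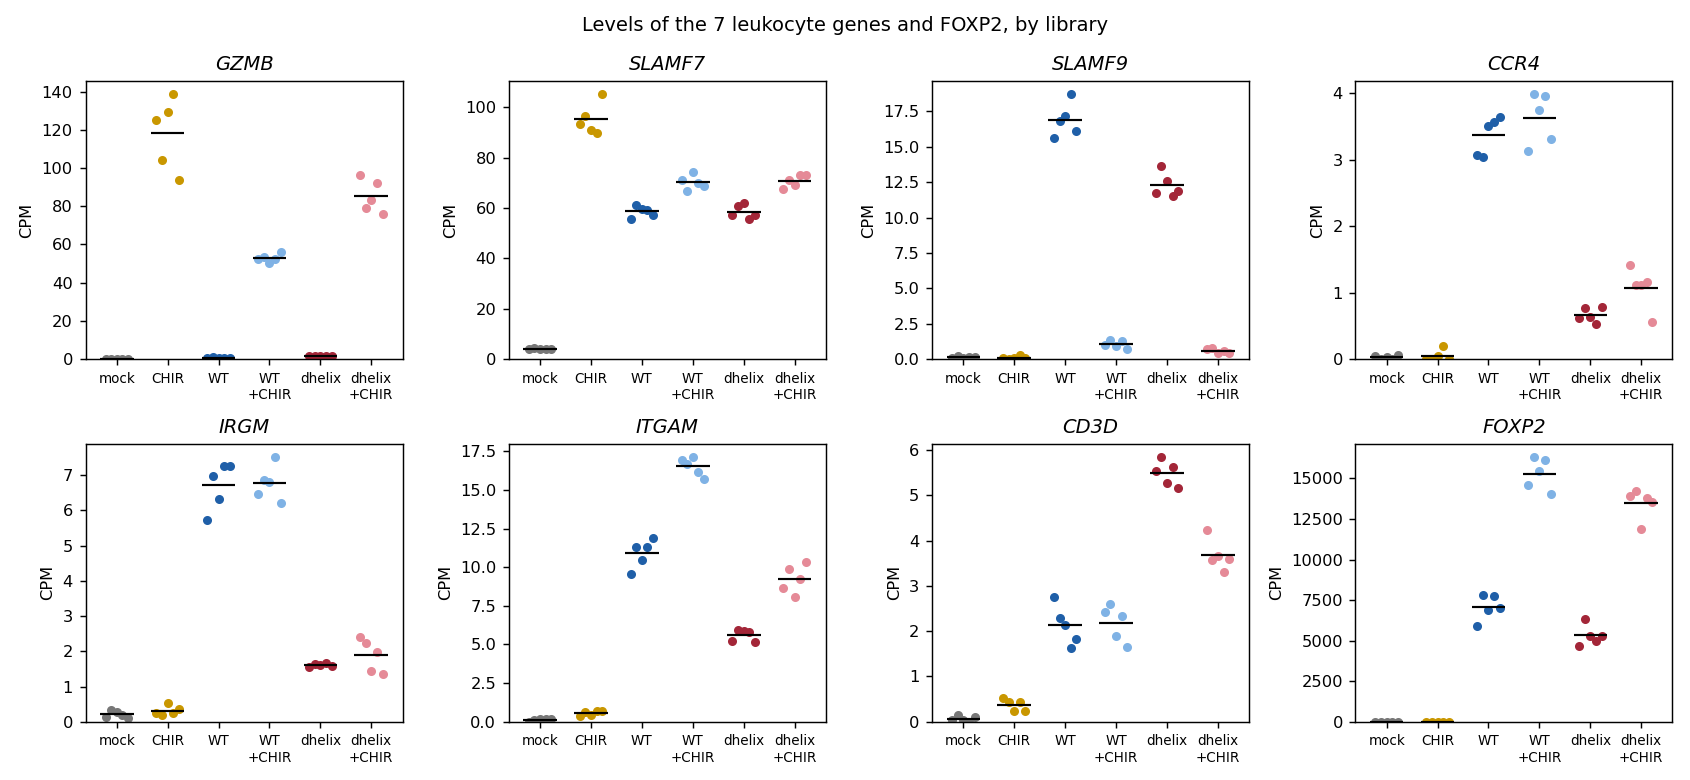
CPM (y axis, linear, from 0) of the 7 leukocyte genes and of FOXP2 in each of the 30 libraries, by group (x axis); points are libraries and black lines are group means of 5. GZMB was high in the 3 CHIR groups, SLAMF9 in the 2 FOXP2 groups without CHIR, SLAMF7 in all groups but mock, and CCR4, IRGM and ITGAM in the plasmid groups, where WT FOXP2 stood above dhelix FOXP2; CD3D was highest in dhelix FOXP2.

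GZMB (ENSG00000100453), the granule protease, was close to absent without CHIR. Its level was 0.0486, 0, 0, 0.119 and 0 CPM in the 5 mock libraries, which is 3 counts in all, 2 of them in mock replicate 4. In CHIR it was at 125, 104, 129, 139 and 93.6 CPM. With so few counts in mock, the ratio of CHIR to mock is 4179 with a 95% counting interval of 1430 to 20269, which covers counting error only. Without mock replicate 4 the fitted log2 difference between CHIR and mock was 12.74, against 11.74 with it. In bulk RNA, more cells with the transcript and more transcript per cell cannot be told apart, here or for the genes that follow. WT FOXP2 cells were at 0.615, 0.998, 0.688, 0.602 and 0.637 CPM and dhelix FOXP2 cells at 1.69, 1.44, 1.70, 1.44 and 1.49 CPM. All of these libraries lay above all mock libraries, by ratios of 24.7 (interval 8.14 to 123) and 54.6 (18.4 to 267), at levels that remained below 2 CPM. With CHIR, WT FOXP2 cells were at 52.4, 53.3, 50.1, 52.2 and 56.1 CPM and dhelix FOXP2 cells at 96.3, 79.0, 83.5, 92.1 and 76.0 CPM. The order of the group means was CHIR, dhelix FOXP2 + CHIR, WT FOXP2 + CHIR, dhelix FOXP2, WT FOXP2 and mock, and only the first pair in that order overlapped. On top of CHIR, WT FOXP2 therefore went with less GZMB, by a fitted log2 difference of -1.16 ± 0.08, whereas without CHIR it went with more than in mock. GZMB overlaps a long non-coding gene on the opposite strand in GENCODE v29, and since the strand setting of the authors' counting is not given in the sources used here, its counts are uncertain to that extent.

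SLAMF7 (ENSG00000026751), which activates natural killer cells and is known as a marker of plasma cells, was the one member with a clear level in mock cells, at 3.99, 4.26, 4.16, 3.87 and 3.92 CPM. In CHIR it was at 93.3, 96.4, 91.1, 89.7 and 105 CPM. In WT FOXP2 it was at 55.6, 61.1, 59.7, 59.3 and 57.3 CPM, and in dhelix FOXP2 at 57.1, 60.7, 62.1, 55.5 and 57.2 CPM. Either treatment alone thus came with a higher level than in mock, at fitted log2 differences of 4.55 ± 0.06 for CHIR, 3.85 ± 0.06 for WT FOXP2 and 3.85 ± 0.06 for dhelix FOXP2. The combination did not add up: WT FOXP2 + CHIR cells were at 71.0, 66.8, 74.3, 70.1 and 68.5 CPM and dhelix FOXP2 + CHIR cells at 67.6, 71.1, 69.1, 73.2 and 73.1 CPM. Both lay above FOXP2 alone and below CHIR alone in all libraries. The CHIR difference in WT FOXP2 cells minus that in mock cells was -4.29 ± 0.07 log2 units. WT FOXP2 and dhelix FOXP2 means were 58.6 ± 2.13 and 58.5 ± 2.77 CPM (SD, n = 5) without CHIR, and 70.1 ± 2.82 and 70.8 ± 2.45 CPM with it, so the deletion made no difference larger than the spread. The 4 plasmid groups spanned 1.21-fold from the lowest to the highest mean, the narrowest span among the 7 genes.

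SLAMF9 (ENSG00000162723), a SLAM receptor described on macrophages and dendritic cells, had the opposite relation to CHIR. It was at 0.0486, 0.196, 0.0990, 0.179 and 0.115 CPM in mock and at 0.0514, 0, 0.0472, 0.316 and 0.0595 CPM in CHIR. These are 13 and 8 counts over 5 libraries, at or under 3 counts per library on average, and no fold is given between them. In WT FOXP2 it was at 15.6, 16.8, 17.2, 18.7 and 16.2 CPM and in dhelix FOXP2 at 11.8, 13.6, 12.6, 11.5 and 11.9 CPM. These stood 7.03 ± 0.18 and 6.57 ± 0.19 log2 units above mock, and the WT libraries lay above the dhelix libraries without overlap. With CHIR the levels were 0.974, 1.33, 0.949, 1.28 and 0.684 CPM in WT FOXP2 cells and 0.705, 0.762, 0.434, 0.551 and 0.394 CPM in dhelix FOXP2 cells. CHIR thus went with fitted log2 differences of -4.01 ± 0.12 and -4.41 ± 0.15 in the 2 FOXP2 backgrounds. FOXP2 RNA was 2.16 and 2.53 times as high with CHIR there, and its part in these differences was not tested. Above CHIR alone, the FOXP2 groups stood 3.46 ± 0.37 and 2.60 ± 0.43 log2 units higher. CHIR replicate 4 held 5 of the 8 counts in CHIR, and without it these differences were 4.52 and 3.66. That library was also the highest of its group for CCR4 and for FOXP2, which was at 1.33 CPM there and at 0.249 to 0.357 CPM in the other 4.

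CCR4 (ENSG00000183813), the chemokine receptor, was seen in plasmid groups alone. It had 3 counts in all 5 mock libraries (0.0486, 0, 0.0330, 0 and 0.0577 CPM) and 4 counts in CHIR (0, 0, 0.0472, 0.190 and 0 CPM). WT FOXP2 cells were at 3.07, 3.04, 3.50, 3.57 and 3.64 CPM and dhelix FOXP2 cells at 0.611, 0.771, 0.625, 0.530 and 0.789 CPM. The ratios to mock were 119 (95% counting interval 40.5 to 581) for WT FOXP2 and 23.2 (7.69 to 115) for dhelix FOXP2. With CHIR, WT FOXP2 cells were at 3.13, 3.98, 3.74, 3.96 and 3.31 CPM and dhelix FOXP2 cells at 1.41, 1.11, 1.12, 1.16 and 0.563 CPM. Against CHIR alone the ratios were 80.5 (31.2 to 297) and 24.1 (9.12 to 90.3), where CHIR replicate 4 held 3 of the 4 counts, and without it the fitted log2 differences went from 6.15 to 7.55 and from 4.41 to 5.81. The WT libraries stood above all dhelix libraries with and without the drug, and CHIR and no-CHIR libraries overlapped within each construct.

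IRGM (ENSG00000237693), the autophagy GTPase, followed the same order of groups as CCR4. It was at 0.146, 0.343, 0.264, 0.179 and 0.115 CPM in mock and, overlapping with it, at 0.257, 0.187, 0.519, 0.253 and 0.357 CPM in CHIR. WT FOXP2 cells were at 5.72, 6.98, 6.32, 7.27 and 7.27 CPM and dhelix FOXP2 cells at 1.55, 1.65, 1.60, 1.66 and 1.58 CPM. These were 4.92 ± 0.18 and 2.85 ± 0.23 log2 units above mock. With CHIR, WT FOXP2 cells were at 6.45, 6.87, 6.80, 7.52 and 6.22 CPM and dhelix FOXP2 cells at 2.42, 2.23, 1.43, 1.98 and 1.35 CPM. Within each construct the libraries with and without CHIR overlapped, with means of 6.77 ± 0.50 and 6.71 ± 0.68 CPM in WT FOXP2 cells. IRGM overlaps ZNF300 on the opposite strand in GENCODE v29, which makes its counts uncertain in the same way as those of GZMB. ZNF300 had means of 15.6 CPM in mock, 29.4 in CHIR, 12.8 in WT FOXP2 and 13.5 in dhelix FOXP2. The part of ZNF300 reads in the IRGM counts was not tested.

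ITGAM (ENSG00000169896), the αM integrin chain, was at 0, 0.0979, 0.165, 0.179 and 0.173 CPM in mock and at 0.360, 0.622, 0.424, 0.695 and 0.714 CPM in CHIR. WT FOXP2 cells were at 9.53, 11.3, 10.4, 11.3 and 11.9 CPM and dhelix FOXP2 cells at 5.21, 5.92, 5.87, 5.79 and 5.15 CPM. Each of these groups lay above mock without overlap, by 2.10 ± 0.35 for CHIR, 6.41 ± 0.18 for WT FOXP2 and 5.44 ± 0.20 for dhelix FOXP2 on the log2 scale. The combinations were higher again, with WT FOXP2 + CHIR at 17.0, 16.7, 17.1, 16.2 and 15.7 CPM and dhelix FOXP2 + CHIR at 8.66, 9.91, 8.07, 9.26 and 10.4 CPM. The group means ran from WT FOXP2 + CHIR through WT FOXP2, dhelix FOXP2 + CHIR, dhelix FOXP2 and CHIR to mock, and WT FOXP2 and dhelix FOXP2 + CHIR were the one pair of neighbours that overlapped.

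CD3D (ENSG00000167286), the CD3 δ chain, was the member that stood highest in dhelix FOXP2 without drug. It was at 0.0486, 0.147, 0.0330, 0 and 0.115 CPM in mock (7 counts) and at 0.514, 0.435, 0.236, 0.442 and 0.238 CPM in CHIR. WT FOXP2 cells were at 2.77, 2.29, 2.13, 1.63 and 1.84 CPM and dhelix FOXP2 cells at 5.53, 5.85, 5.28, 5.64 and 5.15 CPM. The fitted log2 differences from mock were 2.37 ± 0.46, 4.85 ± 0.30 and 6.25 ± 0.24. With CHIR, WT FOXP2 cells were at 2.44, 2.61, 1.90, 2.34 and 1.65 CPM and dhelix FOXP2 cells at 4.23, 3.58, 3.66, 3.31 and 3.60 CPM. CHIR thus went with a higher level in mock cells, overlapping levels in WT FOXP2 cells and a lower level in dhelix FOXP2 cells (-0.58 ± 0.11).

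Counted over the members, 4 of 7 (GZMB, SLAMF7, ITGAM and CD3D) stood higher in all CHIR libraries than in any mock library, where 29.9% of the 18485 genes did so. All 7 stood higher in WT FOXP2 than in mock without overlap, against 36.2% of all genes, and all 7 in dhelix FOXP2, against 36.4%. Above CHIR alone, 5 stood higher in WT FOXP2 + CHIR (30.2% of all genes) and GZMB and SLAMF7 lower (30.4%). The same 5 stood higher in dhelix FOXP2 + CHIR (28.3%) and SLAMF7 lower (28.3%), with GZMB overlapping. Since the members were chosen for such differences, nothing is read from these counts, and the comparisons share their mock or CHIR libraries.

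The members split in how they differed between dhelix FOXP2 and WT FOXP2. Without CHIR, 4 were lower in dhelix FOXP2 in all libraries (16.5% of all genes) and 2 higher (13.5%). The fitted log2 differences were -2.34 ± 0.17 for CCR4, -2.07 ± 0.12 for IRGM, -0.97 ± 0.08 for ITGAM and -0.46 ± 0.08 for SLAMF9. GZMB stood 1.13 ± 0.26 and CD3D 1.39 ± 0.12 higher. With CHIR, CCR4, IRGM and ITGAM were lower without overlap (11.6% of all genes), at -1.74 ± 0.17, -1.83 ± 0.12 and -0.84 ± 0.08, and SLAMF9 was at -0.86 ± 0.24 with overlapping libraries. GZMB and CD3D were again higher without overlap (12.9%), at 0.69 ± 0.08 and 0.74 ± 0.14. FOXP2 RNA also differed between the constructs. It fell by 0.41 ± 0.08 on the log2 scale in dhelix FOXP2 (adjusted p = 0.000337, edgeR), from 7076 ± 779 to 5319 ± 640 CPM, and stood at 13481 ± 917 against 15299 ± 983 CPM with CHIR (adjusted p = 0.106). Without CHIR the mean FOXP2 RNA of dhelix FOXP2 was 0.752 times that of WT FOXP2. The part of this RNA difference in the members' differences was not tested.

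**Figure D2:**
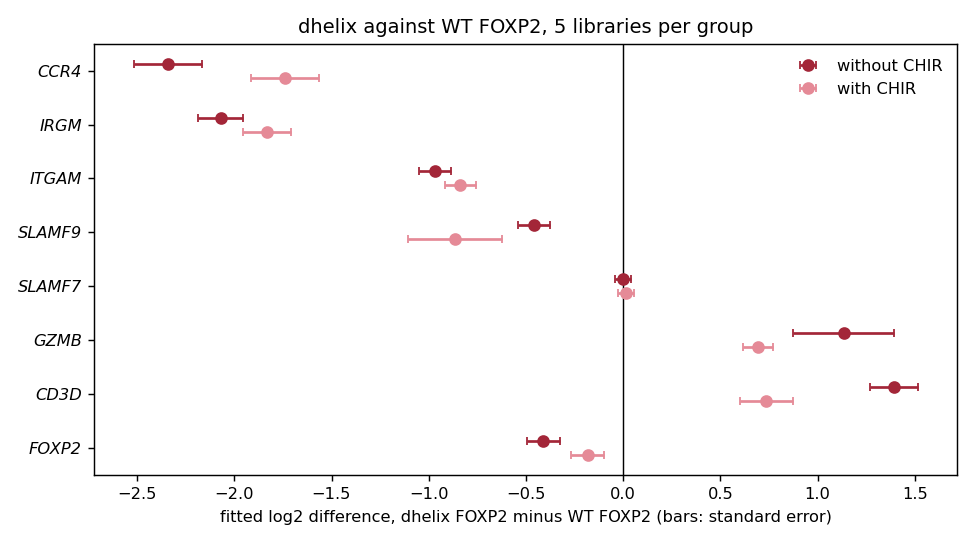
Fitted log2 differences (x axis), dhelix FOXP2 minus WT FOXP2, of the 7 members and FOXP2 (y axis), without CHIR (dark) and with CHIR (light); bars are standard errors of the fit, 5 libraries per group. CCR4, IRGM, ITGAM and SLAMF9 lie left of 0, SLAMF7 on it, and GZMB and CD3D right of it, in both conditions.

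The difference that went with CHIR depended on the background. In WT FOXP2 cells, 3 members stood higher with CHIR without overlap (28.1% of all genes), namely GZMB at 6.22 ± 0.14, ITGAM at 0.59 ± 0.08 and SLAMF7 at 0.26 ± 0.04 on the log2 scale, and SLAMF9 stood lower (25.7%). In dhelix FOXP2 cells the same 3 stood higher (28% of all genes), at 5.78 ± 0.12, 0.72 ± 0.09 and 0.27 ± 0.04, and SLAMF9 and CD3D lower (25.3%). The plasmid groups with CHIR also held more FOXP2 RNA than those without, by 1.11 ± 0.09 and 1.34 ± 0.09 log2 units (adjusted p = 3.62e-12 and 7.25e-14, edgeR), so CHIR and the amount of FOXP2 RNA cannot be told apart there. Across the 4 plasmid groups the highest mean was 121 times the lowest for GZMB, 29.7 times for SLAMF9, 5.45 times for CCR4, 4.22 times for IRGM, 2.96 times for ITGAM and 2.58 times for CD3D.

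**Figure D3:**
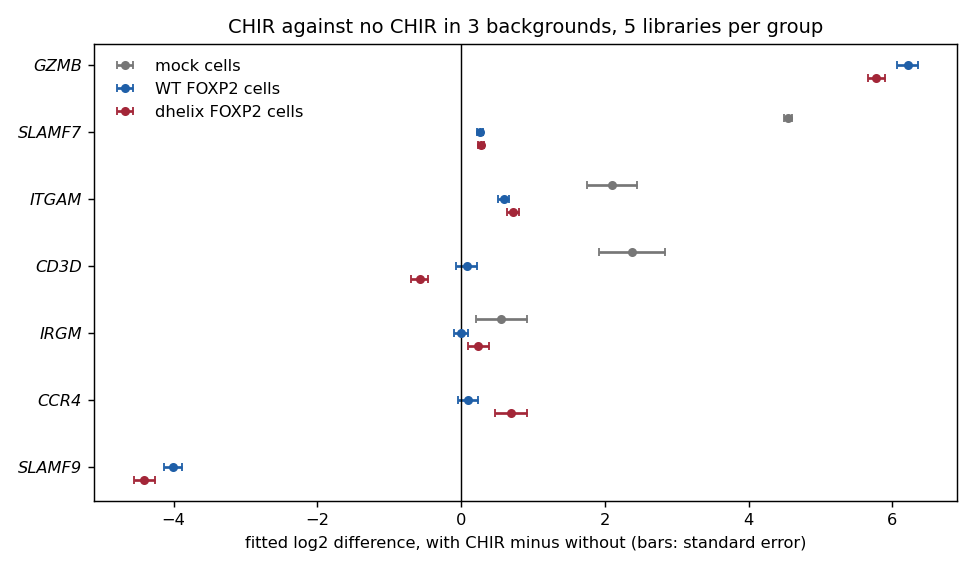
Fitted log2 differences (x axis), with CHIR minus without, of the members (y axis) in mock cells (grey), WT FOXP2 cells (blue) and dhelix FOXP2 cells (red); bars are standard errors, 5 libraries per group. Mock points are left out for GZMB, CCR4 and SLAMF9, whose mock counts were 3, 3 and 13. Those of CD3D and ITGAM are drawn although their mock counts were 7 and 13, so they rest on few counts too. GZMB lies far right and SLAMF9 far left in both FOXP2 backgrounds. SLAMF7, ITGAM and CD3D lie further right in mock cells than in FOXP2 cells.

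A list of 51 related leukocyte genes, the families and partners of the 7, was tested in the same fit over all genes. Not all of them are particular to leukocytes. IRGQ, ATG16L1, BECN1, ULK1 and CTSC were tested too, with lowest group means of 50.8, 27.3, 57.1, 16.2 and 155 CPM. The shares and medians below cover such genes as well. Of these, 23 passed the filter and 5 had no count in any library (GZMK, CD84, SH2D1A, CCR8 and IRGC). A gene counts as risen or fallen at an adjusted p under 0.05 (edgeR's quasi-likelihood test, Benjamini-Hochberg over 18485 genes), a threshold that most genes of this experiment passed. In CHIR against mock, 11 of 23 rose and 7 fell, 78.3% against 74.1% of all genes, with a median log2 difference of 0.21 against 0.02 for all genes. In WT FOXP2 against mock, 12 rose and 7 fell, 82.6% against 81.6% of all genes, with a median of 0.36 against -0.02. In dhelix FOXP2 against mock, 13 rose and 6 fell, 82.6% against 80.5%, with a median of 0.65 against -0.02. Above CHIR alone, 14 rose and 6 fell in WT FOXP2 + CHIR (87% against 78.4%, median 0.68 against -0.03), and 13 rose and 6 fell in dhelix FOXP2 + CHIR (82.6% against 75.9%, median 0.58 against -0.03). In these 5 comparisons the share that passed was within 10 percentage points of that of all genes, with calls in both directions. With CHIR in WT FOXP2 cells 12 rose and 6 fell (78.3% against 64.9% of all genes, median 0.62 against 0.04), and in dhelix FOXP2 cells 12 rose and 7 fell (82.6% against 63.2%, median 0.44 against 0.04). Between the constructs, 5 rose and 4 fell in dhelix FOXP2 against WT FOXP2 (39.1% against 35.6% of all genes, median 0.09 against 0.00), and 6 rose and 6 fell with CHIR (52.2% against 30.6%, median 0.08 against 0.01). The share was thus above that of all genes in the comparisons for CHIR within a construct and for the constructs with CHIR, again with calls in both directions. For the constructs with CHIR this depended on single libraries. The 12 calls ranged from 8 to 13 when each library was left out in turn, with 8 without dhelix FOXP2 + CHIR replicate 3. The interaction of construct and CHIR passed in 12 of 23 for WT FOXP2 (52.2% against 65.6% of all genes) and 13 for dhelix FOXP2 (56.5% against 64.8%).

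**Figure D4:**
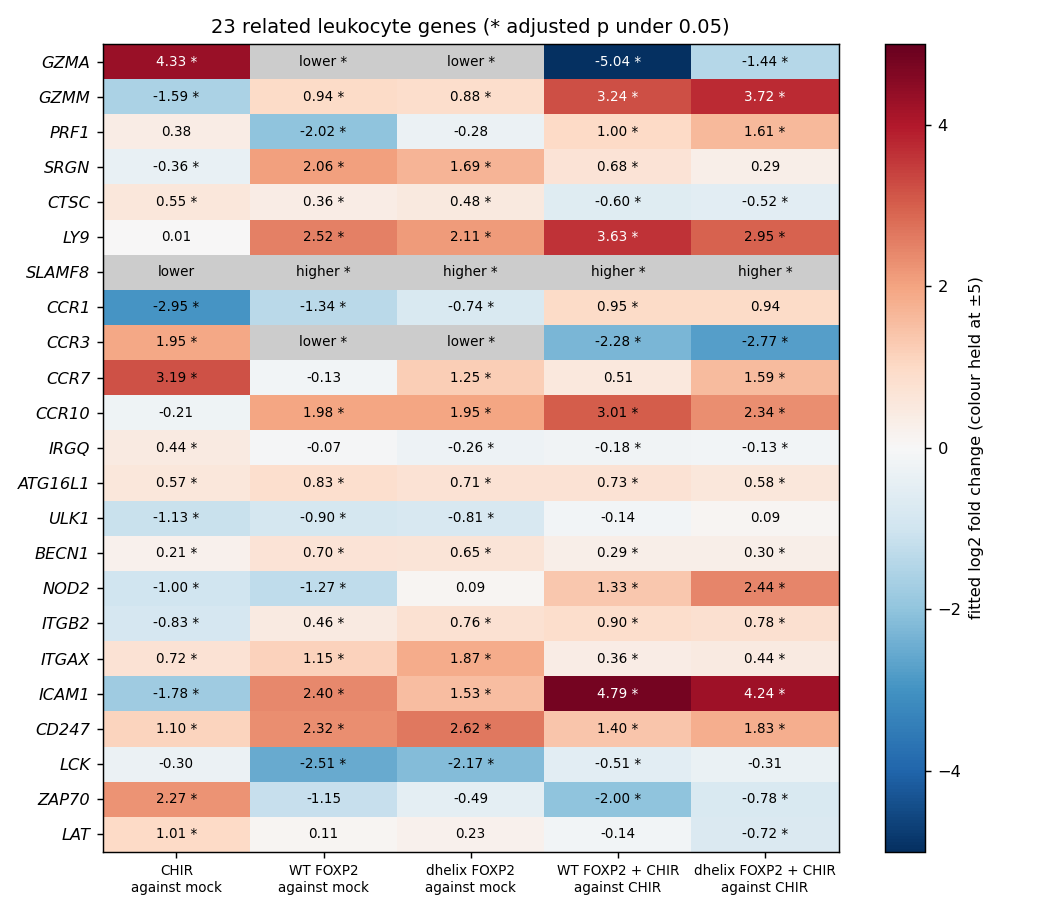
Fitted log2 fold changes of the 23 related leukocyte genes that were tested (rows) in 5 comparisons (columns), coloured from blue (lower) to red (higher) with the value printed; an asterisk marks an adjusted p under 0.05. Grey cells give a direction alone because 1 of the 2 groups had 3 counts or fewer. Rows hold red and blue cells side by side, and GZMA is the gene with the largest increase in CHIR against mock.

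Among the cytotoxic granule genes, 5 of 10 were tested, and 2 rose and 2 fell in CHIR against mock. GZMA, the tryptase-like granzyme A, rose from 0.137 ± 0.115 to 3.13 ± 0.714 CPM, by 4.33 ± 0.38 log2 units (adjusted p = 1.77e-12). Like GZMB, it was lower in WT FOXP2 + CHIR than in CHIR, where it fell by 5.04 ± 0.43 on the log2 scale (adjusted p = 5.91e-13), to 0.0862 ± 0.0498 CPM. Without CHIR it had 3 counts in WT FOXP2 and 1 count in dhelix FOXP2, against 16 in mock. In dhelix FOXP2 + CHIR cells it was at 1.13 ± 0.741 CPM, higher than in WT FOXP2 + CHIR by 3.60 ± 0.53 (adjusted p = 1.98e-06), the same direction as GZMB. PRF1, the pore-forming perforin that lets granzymes into target cells, stayed between 0.0572 and 1.03 CPM as a group mean. It did not pass in CHIR against mock and rose with CHIR in WT FOXP2 cells by 3.40 ± 0.46 and in dhelix FOXP2 cells by 2.26 ± 0.30 (adjusted p = 4.9e-08 and 4.6e-08). Without WT FOXP2 replicate 2 the former was 4.0. SRGN, the proteoglycan that packs granule proteases, rose from 3.58 ± 0.457 CPM in mock to 14.8 ± 1.15 in WT FOXP2 and 11.5 ± 0.753 in dhelix FOXP2, by 2.06 ± 0.11 and 1.69 ± 0.11 (adjusted p = 9.52e-20 and 4.8e-17). SRGN fell by 1.74 ± 0.10 with CHIR in WT FOXP2 cells and fell by 1.76 ± 0.11 in dhelix FOXP2 cells (adjusted p = 2.99e-17 and 2.2e-16), where SLAMF9 was lower and GZMB higher. GZMH, the neighbour of GZMB in its granzyme cluster, and NKG7 had 7 counts and 1 count in all 30 libraries.

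Of the SLAM family, 2 of 9 listed relatives were tested, LY9 and SLAMF8, and both rose in WT FOXP2 and in dhelix FOXP2 against mock, while neither passed in CHIR against mock. LY9, a SLAM receptor of T and B cells, rose from 0.0708 ± 0.0343 to 0.418 ± 0.0976 CPM in WT FOXP2, by 2.52 ± 0.41 (adjusted p = 9.9e-07). SLAMF8 had 3 counts in mock and none in CHIR, and was at 0.572 ± 0.175 CPM in WT FOXP2 and 0.525 ± 0.139 CPM in dhelix FOXP2 (adjusted p = 7.3e-09 and 1.16e-08 against mock). The relatives that were not tested held 137 counts (CD48), 46 (SH2D1B), 7 (CD244), 6 (SLAMF1) and 1 (SLAMF6) over the 30 libraries, and CD84 and SH2D1A none.

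Of 15 chemokine receptors and CCR4 ligands, 4 were tested. In CHIR against mock, CCR1, a receptor of inflammatory chemokines, fell by 2.95 ± 0.32 (adjusted p = 2.21e-10), and CCR3, the eotaxin receptor, rose by 1.95 ± 0.27 (adjusted p = 5.49e-08). CCR7, which guides lymphocytes to lymph nodes, rose with CHIR in WT FOXP2 cells by 3.83 ± 0.43 and in dhelix FOXP2 cells by 3.53 ± 0.28 (adjusted p = 7e-10 and 1.41e-13), up to 2.22 ± 0.401 CPM. CCR10, like CCR4 a receptor of skin-homing T cells, rose in WT FOXP2 and in dhelix FOXP2 against mock, by 1.98 ± 0.32 and 1.95 ± 0.31 (adjusted p = 6.91e-07 and 4.51e-07). It fell by 0.67 ± 0.22 in dhelix FOXP2 + CHIR against WT FOXP2 + CHIR (adjusted p = 0.0179), a call that was lost without WT FOXP2 + CHIR replicate 3 or dhelix FOXP2 + CHIR replicate 3 (adjusted p up to 0.0513 over the libraries left out in turn). The ligands CCL17 and CCL22 held 18 and 27 counts in all 30 libraries.

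Around IRGM, 5 of 6 relatives and autophagy partners were tested, and 2 rose and 2 fell in WT FOXP2 and in dhelix FOXP2 against mock. ULK1, the kinase that starts autophagy, fell by 1.13 ± 0.08 in CHIR, fell by 0.90 ± 0.08 in WT FOXP2 and fell by 0.81 ± 0.08 in dhelix FOXP2 (adjusted p = 4.5e-15, 6.53e-13 and 4.47e-12). NOD2, a sensor of bacterial peptidoglycan that acts with IRGM, rose in dhelix FOXP2 against WT FOXP2 by 1.35 ± 0.26 (adjusted p = 7.38e-05), the direction opposite to that of IRGM.

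Of 5 integrin partners and ligands, 3 were tested, and ITGAL and ITGAD held 61 and 32 counts over the 30 libraries. ITGB2, the β2 chain without which αM does not reach the cell surface, was at 9.05 ± 0.891 CPM in mock, 5.07 ± 0.683 in CHIR, 12.3 ± 0.796 in WT FOXP2 and 15.3 ± 0.514 in dhelix FOXP2. It fell by 0.83 ± 0.09 in CHIR and rose in WT FOXP2 by 0.46 ± 0.08 and in dhelix FOXP2 by 0.76 ± 0.08 against mock (adjusted p = 6.02e-10, 3.41e-06 and 2.66e-11). ITGAX, the αX chain whose gene lies next to ITGAM, rose in WT FOXP2 by 1.15 ± 0.10 and in dhelix FOXP2 by 1.87 ± 0.10 (adjusted p = 1.38e-12 and 1.28e-19). Unlike ITGAM it was higher in dhelix FOXP2 than in WT FOXP2, by 0.73 ± 0.09 (adjusted p = 2.37e-08), at 20.9 ± 0.916 against 12.6 ± 0.965 CPM. ICAM1, a ligand of the β2 integrins, rose in WT FOXP2 by 2.40 ± 0.23 and, above CHIR, in WT FOXP2 + CHIR by 4.79 ± 0.29 (adjusted p = 5.94e-12 and 1.97e-17), up to 3.86 ± 0.540 CPM. It fell by 0.87 ± 0.18 in dhelix FOXP2 against WT FOXP2 (adjusted p = 0.000174), the same side as ITGAM.

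Of the partners of CD3D in its complex, CD3E and CD3G, the ε and γ chains that assemble with it and lie beside it in the genome, held 3 counts and 1 count in all 30 libraries. CD247, the ζ chain, was at 0.133 ± 0.0699 CPM in mock and rose in WT FOXP2 by 2.32 ± 0.35 and in dhelix FOXP2 by 2.62 ± 0.32 (adjusted p = 2.34e-07 and 3.08e-09), to 0.686 ± 0.195 and 0.843 ± 0.164 CPM. LCK, the kinase that phosphorylates the CD3 chains, fell by 2.51 ± 0.25 in WT FOXP2 and fell by 2.17 ± 0.22 in dhelix FOXP2 (adjusted p = 1.18e-11 and 2.47e-11). LAT, the adaptor downstream of them, rose in CHIR by 1.01 ± 0.19 (adjusted p = 1.24e-05).

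Markers of leukocytes as cells moved in both directions. Of 26 such markers, 10 were tested, and TYROBP had no count in any library. The markers that were not tested held at most 175 counts over 30 libraries (CD79A). The T cell markers CD2 and CD5 held 2 and 13 counts, the myeloid markers LYZ, S100A8 and FCGR3A 6, 3 and 4, and the myeloid transcription factor SPI1 56. Other markers were well above these counts. CSF1R, the receptor of the macrophage growth factor, was at 0.686 ± 0.145 CPM in mock, 1.51 ± 0.370 in CHIR, 2.55 ± 0.262 in WT FOXP2, 9.62 ± 0.454 in WT FOXP2 + CHIR, 4.38 ± 0.488 in dhelix FOXP2 and 13.7 ± 1.42 in dhelix FOXP2 + CHIR. It rose by 1.08 ± 0.19 in CHIR, by 1.85 ± 0.17 in WT FOXP2 and by 2.64 ± 0.14 in dhelix FOXP2 against mock (adjusted p = 3.95e-06, 1.09e-12 and 7.99e-19). MPO, the peroxidase of neutrophil granules, had 2 counts in mock and 1 count in CHIR, and was at 0.576 ± 0.196 CPM in WT FOXP2, 1.77 ± 0.405 in WT FOXP2 + CHIR, 1.78 ± 0.149 in dhelix FOXP2 and 2.00 ± 0.157 in dhelix FOXP2 + CHIR. These were the 2 myeloid markers tested, and both rose in each FOXP2 group against mock or CHIR, as the 7 members did against mock. CD8A, a co-receptor of cytotoxic T cells, stood between 1.43 and 2.62 CPM as a group mean and rose by 0.63 ± 0.14 in dhelix FOXP2 against mock (adjusted p = 9.26e-05), and did not pass in WT FOXP2 or CHIR. PTPRC, the CD45 phosphatase carried by nearly all leukocytes, was at 0.301 ± 0.182 CPM in mock. It fell by 1.57 ± 0.51 in WT FOXP2 and fell by 1.13 ± 0.45 in dhelix FOXP2, where all 7 members stood higher, and rose by 2.36 ± 0.29 in CHIR, to 1.58 ± 0.341 CPM (adjusted p = 0.00567, 0.0205 and 2.55e-09). The dhelix FOXP2 call was lost without mock replicate 3 or 4 or dhelix FOXP2 replicate 2 or 5 (adjusted p up to 0.0897). The summed level of the 26 markers was 159 to 174 CPM in mock libraries, 84.0 to 94.5 in CHIR, 101 to 108 in WT FOXP2, 122 to 134 in WT FOXP2 + CHIR, 103 to 112 in dhelix FOXP2 and 132 to 142 in dhelix FOXP2 + CHIR, so it was highest in mock. The part of these markers in the members' levels was not tested. The adhesion molecule NCAM1, which is made outside the blood too, gave most of the sum in mock, at 143 CPM. The 7 pan-leukocyte markers among them summed to 17.4 to 21.4 CPM in mock, 31.4 to 36.9 in CHIR, 65.2 to 69.6 in WT FOXP2, 81.4 to 90.0 in WT FOXP2 + CHIR, 67.1 to 73.0 in dhelix FOXP2 and 88.8 to 93.9 in dhelix FOXP2 + CHIR, so this sum was lowest in mock, as the members mostly were. Most of it in the 4 plasmid groups came from the actin-bundling gene LCP1. PTPRC does not stand for the other pan-leukocyte markers, of which 6 with PTPRC were tested. In WT FOXP2 and in dhelix FOXP2 against mock, 3 rose and 3 fell (100% against 81.6% and 80.5% of all genes). Their median log2 differences were 0.36 and 0.94, against -0.02 for all genes. In CHIR against mock 4 rose and 1 fell (83.3% against 74.1%). Of the 10 tested markers, 5 rose and 2 fell in CHIR against mock (70% against 74.1% of all genes), 5 rose and 4 fell in WT FOXP2 against mock (90% against 81.6%), and 6 rose and 4 fell in dhelix FOXP2 against mock (100% against 80.5%). In dhelix FOXP2 against WT FOXP2, 6 of the 10 rose and 2 fell, 80% against 35.6% of all genes.

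The members' genomic neighbours were taken as the 3 protein-coding genes on each side in the RefSeq gene order, 42 in all, of which 23 were tested. In WT FOXP2 against mock 10 rose and 7 fell, a median of 0.10 against -0.02 for all genes, and in CHIR against mock 12 rose and 4 fell, a median of 0.13 against 0.02. The shares, 73.9% and 69.6%, were below those of all genes, 81.6% and 74.1%, as was that in dhelix FOXP2 against mock, 78.3% against 80.5%. In other comparisons the share was above that of all genes. Above CHIR alone it was 87% against 78.4% in WT FOXP2 + CHIR and 82.6% against 75.9% in dhelix FOXP2 + CHIR. For CHIR in WT FOXP2 cells it was 69.6% against 64.9%, and in dhelix FOXP2 cells 78.3% against 63.2%. The interactions with CHIR passed in 73.9% for each construct, against 65.6% and 64.8%. Between the constructs with CHIR 9 rose and 3 fell, 52.2% against 30.6%. In dhelix FOXP2 against WT FOXP2, 4 rose and 4 fell, 34.8% against 35.6% of all genes, and the 8 calls came down to between 5 and 7 when single libraries were left out. The lowest value, 5, was reached without WT FOXP2 replicate 2 or 5 or dhelix FOXP2 replicate 2, 4 or 5. The genes next to each other at the SLAM locus differed: SLAMF7 stood at 58.6 CPM in WT FOXP2, LY9 at 0.418 CPM, and CD48, SLAMF1, CD84 and CD244 did not pass the filter. Beside SLAMF9, CCDC19 rose in WT FOXP2 by 2.69 ± 0.12 (adjusted p = 5.8e-22) and in CHIR by 1.04 ± 0.15 (adjusted p = 7.29e-08), a condition in which SLAMF9 had 8 counts. KCNJ10, also beside SLAMF9, rose by 3.71 ± 0.37 in WT FOXP2 + CHIR against CHIR (adjusted p = 1.76e-11, edgeR), where SLAMF9 stood higher too. With CHIR in WT FOXP2 cells KCNJ10 rose by 1.55 ± 0.25 (adjusted p = 1.75e-06, edgeR), where SLAMF9 stood lower. Beside CD3D, MPZL3 rose in CHIR by 2.03 ± 0.18 (adjusted p = 2.3e-12). Beside GZMB, NOVA1, a neuronal splicing factor, fell by 1.11 ± 0.06 in WT FOXP2 and fell by 1.25 ± 0.06 in dhelix FOXP2 (adjusted p = 3.43e-18 and 5.06e-20).

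Likeness to each member was measured as Pearson's r of log2 CPM (prior count of 2) over the 30 libraries, among 15143 other genes with a mean of at least 1 CPM. The libraries share their groups, so r describes the pattern over 6 groups more than 30 separate points. The choice of genes rests on this measure: of the 10 most like each member, Spearman's rho kept 0 to 2, and for GNL3 beside SLAMF7 rho was 0.61. GZMB was most like HSPA12A (r = 0.99), CHRNB4 (0.99) and CPLX2 (0.99). CPLX2, which encodes a complexin of synaptic vesicle release, was at 0.0761 CPM in mock and 19.2 CPM in CHIR. SLAMF7 was most like CCDC147, WWC1 and GNL3 (0.99 each), and SLAMF9 most like TMEM154, GART and CALCOCO2 (0.98 each). CCR4 and IRGM were among the 3 most like each other (0.97), together with CNOT4 and CSRNP1 for CCR4 and CSRNP1 and CCRN4L for IRGM (0.97 each). ITGAM was most like NFKBIE, NFKB2 and YRDC (0.99 each), of which the first encodes an inhibitor of NF-kB and the next an NF-kB subunit; NFKB2 was at 36.5 CPM in mock, 57.7 in CHIR, 159 in WT FOXP2 and 144 in dhelix FOXP2. CD3D was most like BNIP3, HIGD1A and UCA1 (0.97 each), and BNIP3, a gene known for its response to low oxygen, was at 7.03 CPM in mock and highest in dhelix FOXP2 at 41.8 CPM. Between members r ran from -0.33 for GZMB and SLAMF9 to 0.97 for CCR4 and IRGM.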

How the data were processed

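RNA of 30 U2OS samples was sequenced, and the values used are whole-number counts per gene that the authors deposited. STAR 2.6.1a, featureCounts, Subread, DESeq2 and hg19 are listed in the submitters' processing notes, and neither annotation release nor strand setting is given in the sources used here. Groups came from sample titles.

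The members, gene lists and comparisons were chosen with earlier results of these data known. edgeR 4.0.16 in R 4.3.3 (quasi-likelihood, trimmed means of M values, default expression filter) fitted all 30 libraries with a mean per group; standard errors are the log2 difference over the root of F. The common biological coefficient of variation was 5.62%, and replicates differed by more than sampling noise (lowest chi-square per gene 1.39). The edgeR step was checked on simulated data. Groups with under 5 counts got ratios with exact 95% intervals. Motifs and neighbours use RefSeq tables in GRCh38.p14, and overlaps GENCODE v29.

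Named related genes are, per comparison, those past 0.05 with at least 1 CPM in a group, at most 3 per direction by size; named neighbours changed at least 2-fold. PTPRC, ITGB2, CD3E, CD3G and CD247 are named always. NCAM1, LCP1, CSF1R, MPO, CD8A, LY9, PRF1 in WT FOXP2 cells, SLAMF8, ATG16L1, BECN1, ZNF300, VIM, SPARC, and genes with few counts were named after their values were seen.

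Alternatives were DESeq2 size factors, DESeq2 1.42.0, an unfiltered table, a minimum mean of 1 CPM, a replicate block, fits of only the groups compared, leaving out single libraries and, for likeness, Spearman's rho and a prior count of 0.5. A fit without 3 libraries that stood apart was added after seeing the data.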

Additional observations from a re-analysis of the deposited data

Results flagged for a closer look

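Some libraries lay far from the other 4 of their group, where chance picks out about 1 in 20 groups and 138 were looked at. They were WT FOXP2 replicate 2 for GZMB (0.998 CPM), CHIR replicate 4 for SLAMF9 (0.316 CPM) and for CCR4 (0.190 CPM), dhelix FOXP2 replicate 1 for GZMA (0.0359 CPM, its group's single count), mock replicate 2 for ICAM1 (0.783 CPM), dhelix FOXP2 replicate 5 for ICAM1 (2.28 CPM), dhelix FOXP2 replicate 4 for CCR10 (1.63 CPM) and WT FOXP2 + CHIR replicate 4 for CTSC (149.6 CPM). CTSC encodes cathepsin C, which activates granzymes.

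The CHIR response of several related genes differed between FOXP2 cells and mock cells by edgeR's interaction test. The response is the signed log2 difference, with CHIR minus without. In dhelix FOXP2 cells its value was higher by 2.70 for ICAM1, 2.35 for NOD2 and 1.89 for PRF1 (adjusted p = 6.09e-06, 6.27e-08 and 0.00184). It differed by -1.43 for ITGAX, -1.40 for SRGN and -0.99 for CTSC (adjusted p = 3.28e-11, 2.3e-08 and 6.6e-20). In WT FOXP2 cells the value was higher by 2.60 for NOD2, 2.39 for ICAM1 and 2.29 for CCR1 (adjusted p = 1.78e-07, 3.19e-05 and 0.000132). A higher value was not always a larger response. For CCR1 the response in mock cells was -2.95. For ICAM1 it was -1.78 in mock cells, 0.62 in WT FOXP2 cells and 0.93 in dhelix FOXP2 cells. PRF1 differed in WT FOXP2 cells too, by 3.02 (adjusted p = 0.000121), and by 3.65 without WT FOXP2 replicate 2, at levels under 1 CPM. In these cells the response differed by -1.38 for SRGN, -0.96 for CTSC and -0.79 for ITGAX (adjusted p = 1.51e-08, 1.75e-19 and 1.18e-05).

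Among the members, 4 of 28 pairs of differences had opposite signs in all libraries, and the difference between them was not tested. The share of such pairs over all genes was not computed. Since the members were chosen for strong differences, nothing is read from this count. CD3D was lower with CHIR in dhelix FOXP2 cells (-0.58) and higher with CHIR in mock cells. GZMB was lower in WT FOXP2 + CHIR than in CHIR (-1.16) and higher in WT FOXP2 than in mock. SLAMF7 was lower in WT FOXP2 + CHIR (-0.44) and in dhelix FOXP2 + CHIR (-0.43) than in CHIR, and higher with each construct than in mock.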

How the results depend on the processing

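A minimum mean of 1 CPM left 12 of the related genes, and fewer calls followed from the smaller list: 11 in CHIR against mock, 11 in WT FOXP2 against mock, 10 in dhelix FOXP2 against mock, 10 in WT FOXP2 + CHIR and 11 in dhelix FOXP2 + CHIR against CHIR, 11 and 10 for CHIR in WT FOXP2 and dhelix FOXP2 cells, and 7 in dhelix FOXP2 + CHIR against WT FOXP2 + CHIR. With WT FOXP2 and mock fitted alone, 12 calls came from the 14 related genes that passed the filter. The share of all genes called was not computed for these settings, so nothing about the list is read from these counts. Leaving out each library in turn gave 5 to 7 neighbour calls in dhelix FOXP2 against WT FOXP2. DESeq2 size factors, DESeq2, no filter and the fit without 3 libraries kept all 20 counts within 1.5 times.

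Same-numbered replicates did not pair, since their deviations correlated at -0.077 to 0.145 with a median of 0.0073. With the replicate number as a block, 18 related genes passed in CHIR against mock and 19 in WT FOXP2 against mock, and all 20 counts stayed within 1.5 times.

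No difference of a member reversed in a comparison without overlap. Counts under 5 per group limit GZMB and CCR4: without mock replicate 4, fitted GZMB differences from mock grew by 1.00 log2 unit, and without CHIR replicate 4, CCR4 in WT FOXP2 + CHIR against CHIR went from 6.15 to 7.55 and in dhelix FOXP2 + CHIR from 4.41 to 5.81. SLAMF7 in dhelix FOXP2 + CHIR against dhelix FOXP2 was 0.18 without a filter. The LAT call in dhelix FOXP2 + CHIR against WT FOXP2 + CHIR (-0.58, adjusted p = 0.018) was lost without WT FOXP2 + CHIR replicate 1 or dhelix FOXP2 + CHIR replicate 1 or 5 (up to 0.0782). Of the 10 genes most like each member, a prior count of 0.5 kept 4 to 10.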
